A study of Arabidopsis thaliana with 15 samples.

Results

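The transcripts described here are those of 57 Arabidopsis thaliana genes that encode cytosolic 60S (large-subunit) ribosomal proteins, from L3 to L23a. They were chosen by gene identifier, under a rule that uses no measured value, out of 21777 nuclear, plastid and mitochondrial genes in one table. All 57 were listed in it, they fall into 22 protein families, and all 57 had a mean of at least 10 normalized counts over the 15 libraries, the level above which 16335 genes were tested. The reference annotation gives a ribosomal protein as the product of most of them, often under the bacterial number of the protein (the L12 genes stand there as L11 and the L11 genes as L5P or L16). The exceptions are the L21 genes, named after an SH3-like domain, BBC1 (L13) and SAG24 (L10).

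The 60S subunit joins amino acids and holds the exit tunnel of the growing protein, and it is built in the nucleolus from ribosomal RNA and its proteins. In Arabidopsis each of these proteins is encoded by several nearly alike gene copies, and mutants of single copies (the PIGGYBACK and OLIGOCELLULA genes among them) have altered leaf shape. Plant ribosomal protein promoters are known for short shared motifs, the telo-box and the site II element, and the family is transcribed most in dividing tissue.

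The study altered eS6 (RPS6), a protein of the other, 40S, subunit that has long been known as a phosphorylation target of the TOR kinase pathway; Arabidopsis has the copies RPS6A and RPS6B. Total RNA depleted of ribosomal RNA was sequenced, with ERCC spike-in RNAs added, from shoots of seedlings 12 days old, grown on half-strength MS medium in 16 h of light and 8 h of dark. The 5 genotypes had 3 libraries each: the double mutant rps6a rps6b carrying eS6A-Δ6SA, the same double mutant carrying eS6A-HA (eS6A with an HA tag), the single mutants rps6a and rps6b, and WT. The promoter of the transgenes, the number of lines behind each, the residues that Δ6SA alters and the alleles are not given in the sources used here. No double mutant lacking a transgene is analysed here. Both transgenic groups thus carry the mutations of both copies, and a comparison of them with WT sets a transgene in a double mutant against plants with neither.

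The libraries held 5726410 to 10009723 reads on genes, and spike-in reads made up 4.39 to 6.08% of the reads on genes and spike-ins. The targeted genes matched the labels: RPS6A (AT4G31700) averaged 69.8 ± 13.7 normalized counts in rps6a and 1724 ± 125 in rps6b, against 952 ± 120 in WT, and RPS6B (AT5G10360) averaged 1222 ± 29.9 in rps6a and 266 ± 12.2 in rps6b, against 932 ± 41.3 in WT (SD, n = 3 each). In the transgenic groups RPS6B averaged 64.3 ± 5.11 in eS6A-Δ6SA and 86.7 ± 12.8 in eS6A-HA, and RPS6A, whose reads cannot be told from those of the transgene, 1239 ± 137 and 1827 ± 57.4 (SD, n = 3 each). RPS6B was thus higher in rps6b than in either transgenic group, and the cause was not tested. The tissue label was met by summed levels of 4 shoot markers of 90009 to 127529 normalized counts, and by summed root markers of 0 to 13.4, none of which reached the level for testing. Summed over 7 markers of dividing cells, the level differed between genotypes and is given below beside the members' share of reads.

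The promoters of a few members are shown first, because shared promoter elements are what the family is known for and because these genes carry the results below. They run up to 250 bases upstream of the annotated gene start, shortened where a neighbouring gene begins, on the gene's own strand, from RefSeq's TAIR10.1 assembly. Capitals mark site II elements (TGGGCC or TGGGCT, on either strand; both strands were searched and matches may overlap). RPL3A (AT1G43170, symbol RP1 in the annotation) lies on the plus strand of chromosome 1, its window being chr1:16266303-16266552, and is the main L3 gene. RPL3B (AT1G61580), at chr1:22723153-22723367 on the minus strand, is the minor L3 gene and the only member called lower than WT in rps6a. AT5G27850 (L18), at chr5:9872817-9873066 on the plus strand, and AT5G22440 (L10a), at chr5:7436770-7436904 on the minus strand, were among the members that rose most in the single mutants.
RPL3A: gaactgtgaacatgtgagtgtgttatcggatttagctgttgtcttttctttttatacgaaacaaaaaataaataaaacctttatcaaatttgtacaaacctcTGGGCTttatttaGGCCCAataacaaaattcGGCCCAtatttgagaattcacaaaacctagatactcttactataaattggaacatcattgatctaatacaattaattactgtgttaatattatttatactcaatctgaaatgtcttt
RPL3B: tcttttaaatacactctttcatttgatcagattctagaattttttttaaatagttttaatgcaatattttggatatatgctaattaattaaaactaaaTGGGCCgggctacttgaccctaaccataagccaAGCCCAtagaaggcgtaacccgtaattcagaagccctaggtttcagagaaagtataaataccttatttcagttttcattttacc
AT5G27850: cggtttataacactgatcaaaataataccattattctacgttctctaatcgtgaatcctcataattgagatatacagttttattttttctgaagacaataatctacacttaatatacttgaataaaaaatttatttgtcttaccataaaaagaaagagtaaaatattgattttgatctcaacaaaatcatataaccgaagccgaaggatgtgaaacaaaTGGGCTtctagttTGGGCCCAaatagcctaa
AT5G22440: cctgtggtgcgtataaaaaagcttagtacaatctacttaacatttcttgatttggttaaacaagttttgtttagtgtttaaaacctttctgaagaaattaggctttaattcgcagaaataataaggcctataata
The first 3 hold 3, 2 and 3 site II matches, and the AT5G22440 window holds none. No match says only that these letters are not in this window.

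Over all members, 44 of 57 (77.2%) had a site II element within 250 bases upstream, against 24.2% of the 15844 tested nuclear protein-coding genes. Unlike the windows shown, these counts use the full 250 bases, with any part that lies in a neighbouring gene. The telo-box (AAACCCTA, either strand) stood in 13 of 57 (22.8%), against 3.65% of the same genes, and 11 members (19.3%) had both, against 1.51%. The other 60S genes (23.6% with a telo-box and 65.5% with a site II element) and the 40S genes (12.5% and 66.7%) also stood above all genes. Of the 13 members with a telo-box 5 rose in rps6a and 9 in rps6b against WT (called higher, limma adjusted p under 0.05). Of the 44 without it 27 and 33 rose, where 10.4% and 11.6% of all tested genes rose. Their median changes (log2) were 0.29 in rps6a and 0.38 in rps6b with the telo-box, and 0.36 and 0.45 without it. Of the 44 members with a site II element 24 rose in rps6a and 33 in rps6b, with medians of 0.32 and 0.45, and of the 13 without it 8 and 9 rose, with medians of 0.36 and 0.42. The share that rose in rps6a was smaller with the telo-box than without it, and no difference between these classes was tested. These shares, counts and medians are descriptions, with no test.

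The members were expressed over a wide range. Divided by the length of the longest annotated transcript, the mean over all libraries was highest for AT1G02780 (L19, which forms a bridge to the 40S subunit), at 2063 normalized counts per kb, and for RPL3A, at 1203. AT1G02780 had 1882, 2311 and 2235 normalized counts in eS6A-Δ6SA, 1971, 1918 and 1908 in eS6A-HA, 2592, 2588 and 2448 in rps6a, 2750, 2840 and 2736 in rps6b, and 2133, 1989 and 2023 in WT. Every library of either single mutant lay above every library of the other 3 genotypes. The lowest were AT1G26910 (RPL10B, an L10 copy) at 37.2 per kb and AT2G42740 (RPL16A, an L11 copy) at 33.2 per kb. AT2G42740 had 20.1, 27.5 and 14.4 normalized counts in eS6A-Δ6SA, 26.7, 25.5 and 27.0 in eS6A-HA, 38.7, 27.4 and 33.4 in rps6a, 40.8, 38.3 and 25.2 in rps6b, and 27.3, 23.6 and 25.7 in WT. Its transgenic and rps6b libraries overlapped with WT, and the nearest libraries of rps6a and WT had 27.4 and 27.3. AT2G42740 shares 5.30% of its stretches of 75 bases, the length of the reads, with AT3G58700, so a part of its reads may have been split or dropped in counting. AT1G26910 had 26.4, 27.5 and 23.7 in eS6A-Δ6SA, 32.9, 27.9 and 41.6 in eS6A-HA, 36.3, 39.0 and 44.3 in rps6a, 45.5, 48.1 and 42.2 in rps6b, and 30.8, 31.8 and 26.7 in WT. Both single mutants were above WT without overlap, and the test called the change in rps6b (0.59 ± 0.20 SE on the log2 scale, adjusted p = 0.029) and not that in rps6a (0.41 ± 0.20, adjusted p = 0.15).

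In both single mutants the 60S transcripts stood higher than in WT. Of the 57 members, 32 rose and 1 fell in rps6a (limma, Benjamini-Hochberg adjusted p under 0.05 over all genes tested), where 10.4% of all tested genes rose and 10.8% fell. In rps6b 42 rose, where 11.6% of all tested genes rose. With edgeR 33 rose and 1 fell in rps6a and 43 rose in rps6b, where 11.1% and 12.6% of all tested genes rose. With DESeq2 29 rose and 1 fell in rps6a and 38 rose in rps6b, where 8.42% and 9.61% of all tested genes rose. The median log2 fold change of the members was 0.34 in rps6a (1.27-fold) and 0.44 in rps6b (1.36-fold), against medians of -0.0058 and -0.0063 over all genes. The value was above 0 for 53 members in rps6a and 54 in rps6b, and for 8045 and 8041 of all 16335 tested genes. Both mutants were set against the same 3 WT libraries, so the direction of the one is no independent check of the other. The labels do not say that replicates were separate cultures, so p-values measure the spread between these samples. In bulk tissue, more RNA per cell and a larger share of cells that make much of it cannot be told apart.

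**Figure D1:**
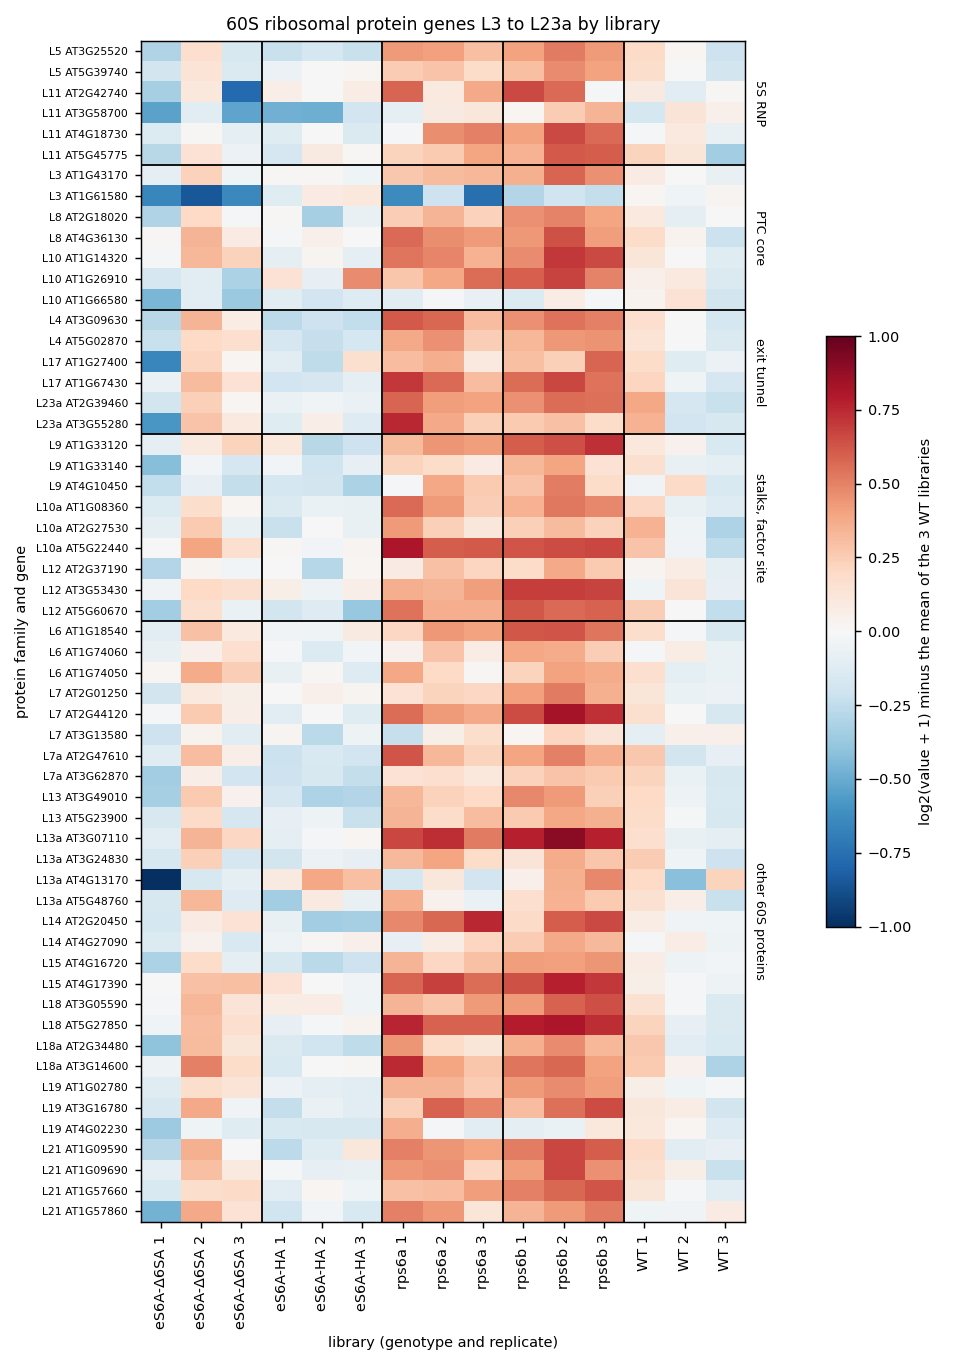
Log2(normalized count + 1) of each of the 57 members (rows, by protein role and family) in each of the 15 libraries (columns), minus the mean of the 3 WT libraries; the colours end at 1.00 above and 1.00 below, and 1 value lies beyond. The 6 libraries of rps6a and rps6b are red in most rows, RPL3B (L3 AT1G61580) is blue in the single mutants and in eS6A-Δ6SA, and the eS6A-Δ6SA libraries differ among themselves.

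As a share of all reads on nuclear genes, the members took 0.829, 1.08 and 0.957% in eS6A-Δ6SA, 0.862, 0.873 and 0.873% in eS6A-HA, 1.28, 1.28 and 1.21% in rps6a, 1.27, 1.39 and 1.34% in rps6b, and 1.03, 0.920 and 0.860% in WT. Every single-mutant library was above every library of the other genotypes, and the eS6A-HA libraries lay closest together. The dividing-cell markers summed to 406, 573 and 492 normalized counts in eS6A-Δ6SA, 278, 313 and 274 in eS6A-HA, 645, 584 and 556 in rps6a, 601, 686 and 648 in rps6b, and 334, 283 and 274 in WT. Of these 7 genes, which include KNOLLE (AT1G08560, of the cell plate), the kinase CDKB2;1 (AT1G76540) and several mitotic cyclins, 6 rose in rps6a with a median log2 fold change of 0.99, and 7 rose in rps6b with a median of 1.10. In eS6A-Δ6SA 4 of 7 rose against WT, with a median of 0.68, and 5 of 7 against eS6A-HA, with a median of 0.81, while the median of eS6A-HA against WT was -0.070. Of all tested genes 10.4% rose in rps6a and 11.6% in rps6b. In eS6A-Δ6SA 2.57% of all genes were called in either direction against WT and 2.63% against eS6A-HA. The part of these markers in the result was not tested. In every genotype but eS6A-HA the libraries had the same order by both sums, and in eS6A-Δ6SA the markers stood above WT in every library while the members' share overlapped with it.

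**Figure D2:**
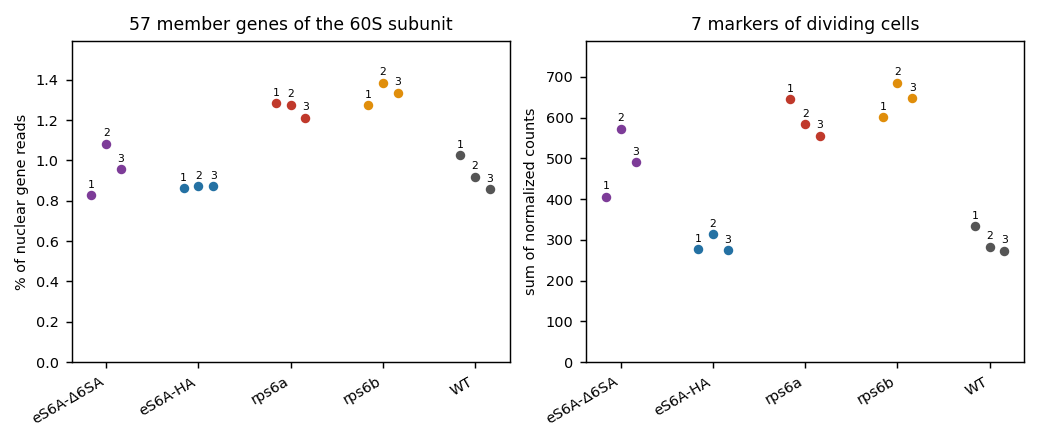
Left, reads of the 57 members as a percentage of all reads on nuclear genes; right, summed normalized counts of 7 markers of dividing cells; each point is 1 library, with its replicate number. On the left the single mutants (1.21 to 1.39%) lie above all other libraries, and on the right eS6A-Δ6SA (406 to 573) also lies above eS6A-HA and WT.

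The other ribosomal protein genes moved in the same way. Of the 55 other 60S genes tested, 29 rose in rps6a (median 0.41) and 35 in rps6b (median 0.49). Of the 72 tested 40S genes without RPS6, 39 rose in rps6a (median 0.38) and 54 in rps6b (median 0.44). Among all tested genes 10.4% rose in rps6a and 11.6% in rps6b. None of these lists was tested against the members.

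By the place of the protein in the subunit, genes of every role were among those that rose in both single mutants. The counts by role stand beside 10.4% of all tested genes that rose in rps6a and 11.6% in rps6b. The 5S RNP proteins L5 and L11 bind the 5S rRNA and are brought into the subunit together; 3 of their 6 genes rose in rps6a and 4 in rps6b. ATL5 (AT3G25520), the more abundant L5 gene, had 1184, 1644 and 1306 normalized counts in eS6A-Δ6SA, 1256, 1296 and 1254 in eS6A-HA, 1967, 1941 and 1805 in rps6a, 1934, 2099 and 1960 in rps6b, and 1672, 1481 and 1264 in WT. The single mutants lay above WT without overlap, and the log2 fold changes were 0.38 ± 0.095 in rps6a (SE, limma adjusted p = 0.0038) and 0.45 ± 0.095 in rps6b (adjusted p = 0.00068). Both L5 genes rose in both mutants, whereas among the L11 genes AT4G18730 (RPL16B) rose in both, AT5G45775 in rps6b, and AT2G42740 and AT3G58700 in neither.

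Around the peptidyl transferase centre (L3, L8 and L10), 4 of 7 genes rose and 1 fell in rps6a, and 5 of 7 rose in rps6b. SAC52 (AT1G14320), the main L10 gene, rose by 0.46 in rps6a (SE 0.088, adjusted p = 0.00017) and by 0.61 in rps6b (SE 0.088, adjusted p = 1.8e-06) on the log2 scale. Its libraries held 1449, 1400 and 1274 normalized counts in rps6a and 1390, 1637 and 1579 in rps6b, against 1088, 1000 and 919 in WT. Along the exit tunnel (L4, L17 and L23a) 4 of 6 genes rose in each single mutant, with medians of 0.46 in rps6a and 0.45 in rps6b, and both L4 genes were among them. For the stalk proteins and the factor-binding site (L9, L10a, the protein of the L1 stalk, and L12, at the base of the P stalk), 5 of 9 genes rose in rps6a and 6 of 9 in rps6b. Among the remaining 29 genes, most of them for proteins on the outer surface of the subunit, 16 rose in rps6a and 23 in rps6b. Both L15 genes and both L18 genes were in that number in each mutant, and AT4G17390 (L15) had 0.61 ± 0.086 in rps6a and 0.71 ± 0.086 in rps6b.

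The members that rose most in rps6a were AT5G22440 (L10a), AT5G27850 (L18) and AT3G07110 (L13a), and in rps6b AT3G07110, AT5G27850 and AT2G44120 (L7). AT5G22440 had 259, 341 and 290 normalized counts in eS6A-Δ6SA, 261, 254 and 264 in eS6A-HA, 454, 394 and 397 in rps6a, 402, 408 and 412 in rps6b, and 317, 252 and 217 in WT. Its log2 fold change was 0.67 ± 0.11 in rps6a (SE, limma adjusted p = 1.5e-05) and 0.65 ± 0.11 in rps6b (adjusted p = 2.4e-05), with no overlap between the single mutants and WT. AT5G27850 had 609, 779 and 707 in eS6A-Δ6SA, 595, 621 and 643 in eS6A-HA, 1067, 946 and 948 in rps6a, 1083, 1101 and 1049 in rps6b, and 733, 594 and 569 in WT. It rose by 0.65 ± 0.092 in rps6a (adjusted p = 1.7e-06) and by 0.78 ± 0.092 in rps6b (adjusted p = 5.3e-08), and the transgenic groups overlapped with WT.

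AT3G07110, a smaller L13a gene, had 264, 362 and 329 in eS6A-Δ6SA, 266, 283 and 290 in eS6A-HA, 455, 477 and 409 in rps6a, 490, 534 and 489 in rps6b, and 321, 271 and 266 in WT. Its rise was 0.64 ± 0.10 in rps6a (adjusted p = 9.7e-06) and, as the largest of all members in rps6b, 0.82 ± 0.10 there (adjusted p = 1.4e-07). AT2G44120 had 514, 622 and 543 in eS6A-Δ6SA, 480, 522 and 479 in eS6A-HA, 764, 700 and 675 in rps6a, 816, 925 and 862 in rps6b, and 580, 521 and 464 in WT. It rose by 0.45 ± 0.090 in rps6a (adjusted p = 0.00025) and 0.74 ± 0.090 in rps6b (adjusted p = 1.1e-07). Each of these 4 genes passed the test under every alternative run in the comparison, or comparisons, in which it was among the 3 largest rises.

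**Figure D3:**
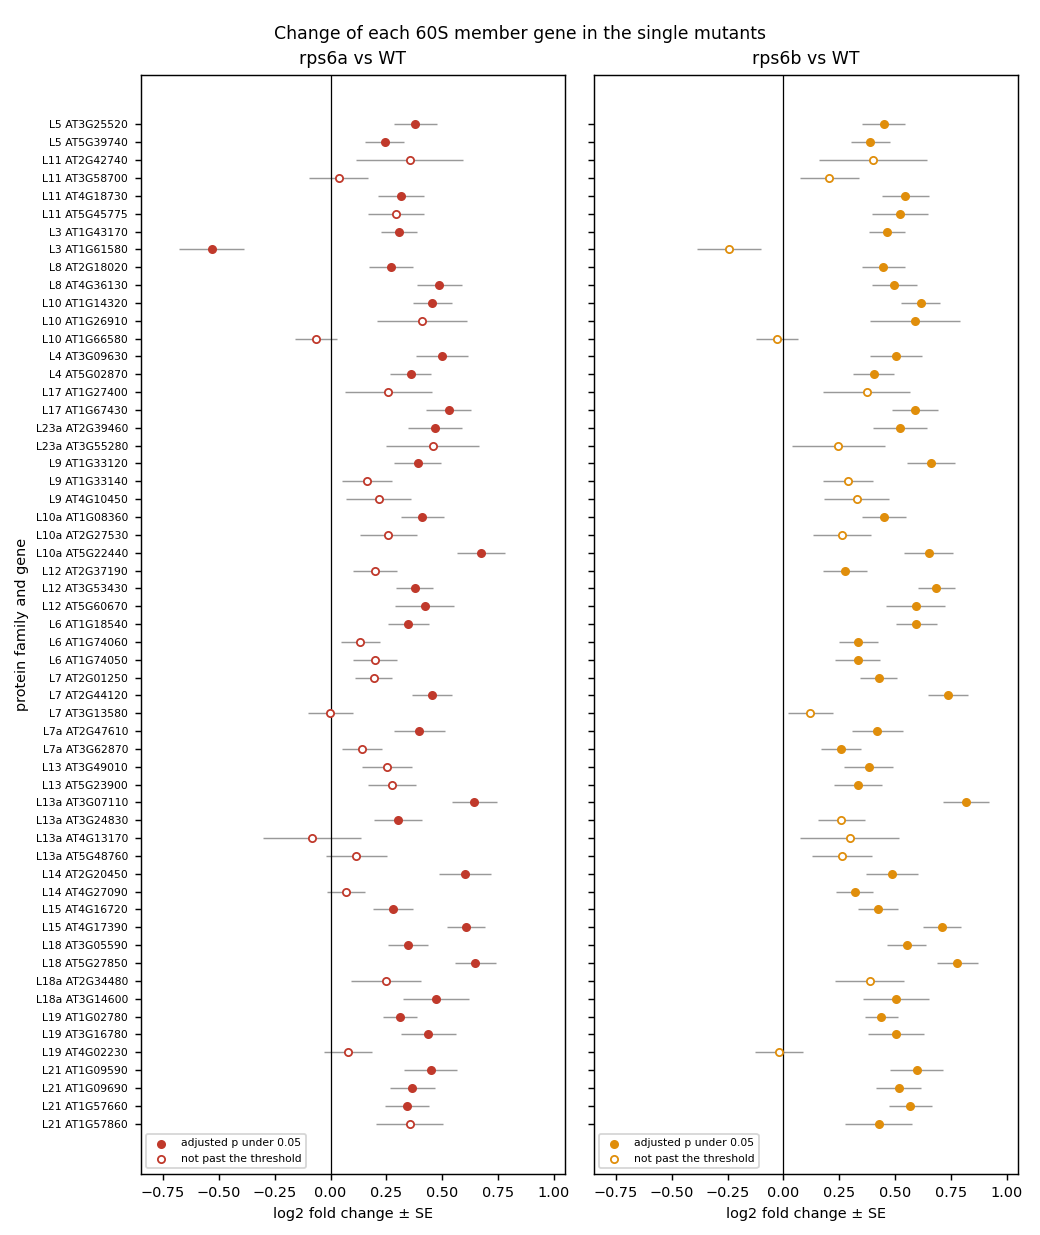
Log2 fold change of each of the 57 members (rows, by family) in rps6a against WT (left) and rps6b against WT (right), with its standard error as a bar; filled points passed adjusted p under 0.05 and open points did not. RPL3B (L3 AT1G61580) is the lowest value in both panels (-0.53 and -0.24), and most other points lie to the right of 0.

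A total of 31 members rose in both single mutants, 11 were called in rps6b alone and 1 (AT3G24830, L13a) in rps6a alone, and 13 were called higher in neither, besides RPL3B. The share of all tested genes that rose in both was not counted, and both comparisons share the WT libraries. The estimate was larger in rps6b for 52 members, but in the direct test of rps6a against rps6b only 1 of 57 was called, where 2.92% of all tested genes were called in either direction; the median difference was -0.13. The one called member was AT3G53430 (L12), which is described because of that value. It had 432, 506 and 495 normalized counts in eS6A-Δ6SA, 460, 426 and 463 in eS6A-HA, 570, 560 and 592 in rps6a, 715, 713 and 704 in rps6b, and 428, 482 and 418 in WT. It rose in rps6a by 0.38 ± 0.084 (adjusted p = 0.0010) and in rps6b by 0.69 ± 0.084 (adjusted p = 1.2e-07), and the difference between the mutants was -0.31 ± 0.084 (adjusted p = 0.033). That call was lost when any 1 of the 6 single-mutant libraries was left out (adjusted p 0.058 to 0.12).

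Scaling to the spike-ins instead of the deposited size factors placed the median of all genes at 0.35 in rps6a and at -0.033 in rps6b against WT. Relative to those medians, the members' medians were 0.35 and 0.44. On this scale 55 members were called higher in rps6a, where 36.3% of all tested genes were called higher, and 35 in rps6b, where 7.55% were. In rps6a against rps6b the sign turned: 17 members were called higher, where 37.1% of all genes were, and the median difference was 0.26, which is -0.12 relative to the median of all genes (0.38). AT3G53430 turned to 0.081 (adjusted p = 0.59). Which single mutant had the higher 60S transcript levels thus changed with the scaling. Without WT replicate 3, the WT library with the smallest share of these transcripts, 20 members were called in either direction in rps6a under the deposited scaling, where 17.4% of all genes were, against 33 with it.

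RPL3B went the other way, as the 1 of 57 members called lower in rps6a, where 10.8% of all tested genes were called lower. It had 64.4, 56.1 and 64.9 normalized counts in eS6A-Δ6SA, 93.6, 108 and 110 in eS6A-HA, 65.3, 88.0 and 60.2 in rps6a, 83.1, 88.8 and 86.2 in rps6b, and 103, 99.0 and 104 in WT. All 9 libraries of rps6a, rps6b and eS6A-Δ6SA lay below every WT and eS6A-HA library. The log2 fold change was -0.53 ± 0.14 in rps6a (SE, limma adjusted p = 0.0066), -0.24 ± 0.14 in rps6b (adjusted p = 0.24), -0.72 ± 0.14 in eS6A-Δ6SA (adjusted p = 0.0022) and 0.023 ± 0.14 in eS6A-HA (adjusted p = 0.97), each against WT. RPL3A encodes the same core protein of the peptidyl transferase centre and moved differently. It had 1735, 2175 and 1803 normalized counts in eS6A-Δ6SA, 1864, 1865 and 1799 in eS6A-HA, 2231, 2312 and 2331 in rps6a, 2373, 2780 and 2537 in rps6b, and 1959, 1846 and 1758 in WT. It rose in rps6a (0.31 ± 0.080, adjusted p = 0.0047) and in rps6b (0.47 ± 0.080, adjusted p = 3.3e-05), and its value was 0.032 in eS6A-Δ6SA (adjusted p = 0.91).

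Per kb of transcript, RPL3B made up 4.16, 2.93 and 4.04% of the L3 transcripts in eS6A-Δ6SA, 5.55, 6.34 and 6.68% in eS6A-HA, 3.31, 4.26 and 2.93% in rps6a, 3.94, 3.60 and 3.82% in rps6b, and 5.80, 5.90 and 6.47% in WT. The same 9 libraries lay below the other 6. The coding sequences of RPL3A and RPL3B are 79.2% identical and the transcripts share no stretch of 75 bases. The call on RPL3B in rps6a was lost without rps6a replicate 3 (adjusted p = 0.057). With spike-in scaling no RPL3B call remained (adjusted p = 0.45 in rps6a, 0.081 in eS6A-Δ6SA against WT and 0.065 against eS6A-HA), the values being -0.17, -0.57 and -0.52 on the log2 scale.

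**Figure D4:**
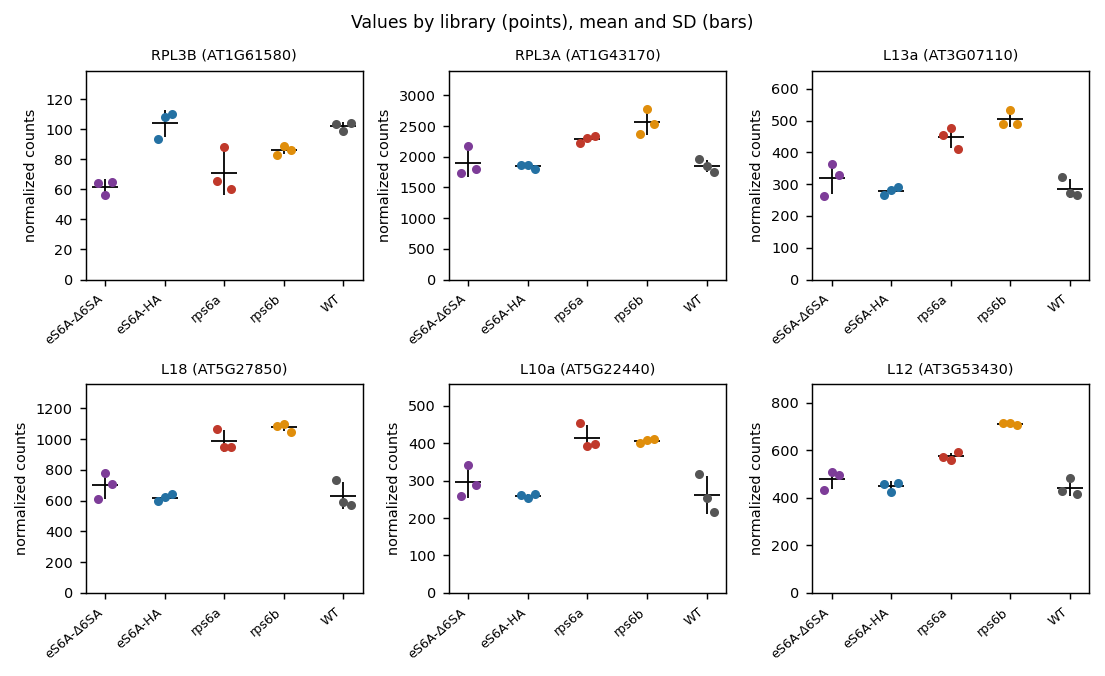
Normalized counts of 6 members in each library (points), with the mean (horizontal bar) and SD (vertical bar) of each genotype; each axis starts at 0. RPL3B is lowest in eS6A-Δ6SA (56.1 to 64.9) and below WT in rps6a and rps6b, while the other 5 genes are highest in the single mutants.

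With the HA-tagged eS6A in the double mutant, the 60S transcripts stood lower than in either single mutant. Against WT none of the 57 members was called in eS6A-HA by limma, where 0.796% of all genes were, and edgeR and DESeq2 also called none. An unadjusted limma p under 0.05 was found for 7 of the 57 members and for 1826 of all 16335 tested genes. The members' median was -0.087, and 12 of 57 values were above 0, where 8203 of all 16335 genes were. With spike-in scaling the median was -0.15, with 2 of 57 values above 0. All genes then had a median of -0.066, with 6002 of 16335 above 0. Against the single mutants, 39 members were lower and 1, RPL3B, was higher (0.56 ± 0.14, adjusted p = 0.0043) in eS6A-HA than in rps6a, where 10.9% of all genes were called lower, with a median of -0.41. Against rps6b 47 were lower, where 11.2% of all genes were called lower, with a median of -0.55. The 39 members lower than in rps6a were all lower than in rps6b too, and both comparisons share the eS6A-HA libraries. The share of all tested genes called lower in both was not counted.

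The eS6A-Δ6SA libraries spread more. Against WT 1 of 57 members, RPL3B, was called, where 2.57% of all genes were, and the median was 0.016. With spike-in scaling the median was 0.17, with 47 of 57 values above 0 and no member called. All genes then had a median of 0.15, with 12380 of 16335 above 0 and 338 called. Under the deposited scaling, the members' median distance from the WT mean was -0.16, 0.20 and 0.017 in replicates 1, 2 and 3, and 3, 49 and 30 members lay above the WT mean in these libraries. Against eS6A-HA again RPL3B alone was called (-0.74 ± 0.14, adjusted p = 0.0018), where 2.63% of all genes were, and the median was 0.11. Without eS6A-Δ6SA replicate 1 that count became 8, where 3.49% of all genes were called. On the spike-in scale the median of all genes was 0.21 in this comparison and 14 members were called higher, where 5.66% of all genes were; the members' median was 0.12 above that of all genes.

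Against the single mutants, 32 members were lower in eS6A-Δ6SA than in rps6a, where 5.77% of all genes were called lower, with a median of -0.32. Against rps6b 46 were lower, where 7.89% of all genes were, with a median of -0.45. The first count depended on single libraries: it was 6 without eS6A-Δ6SA replicate 1 and 19 without its replicate 3, where 3.97% and 4.55% of all genes were called lower. It was 16 without rps6a replicate 1 and 12 without rps6a replicate 2, where 4.15% and 3.75% were. The second was 34 to 51 when single libraries were left out. With spike-in scaling the counts were 51 against rps6a, where 12.6% of all genes were called lower, and 10 against rps6b, where 2.11% were. Relative to the median of all genes on that scale, the medians were -0.33 and -0.45.

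Within families the copies were not all called alike. A call for 1 copy and not for another is no test of a difference between them. Of all 16335 tested genes, 3468 were called in rps6a and 3800 in rps6b against WT, in either direction. In rps6a all copies were called in 6 families (L3, in opposite directions, and L4, L5, L8, L15 and L18), some copies in 15, and neither copy in L13 by limma (0.25, adjusted p = 0.11, for BBC1, AT3G49010, and 0.27, adjusted p = 0.062, for AT5G23900). In rps6b all copies were called in 11 families and at least 1 copy in the other 11. The 13 members called higher in neither single mutant include SAG24 (AT1G66580, an L10 copy, log2 values -0.066 and -0.027), AT3G13580 (L7, -0.0010 and 0.12) and AT4G02230 (L19, 0.079 and -0.018), in rps6a and rps6b. PGY1 (AT2G27530, L10a) had 0.26 in each, and PGY2 (AT1G33140, L9) 0.16 and 0.29, without passing the test.

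The 5 families in which the share of 1 copy differed most between a single mutant and WT were L10, L13a, L12, L9 and L14. The share is the copy's value per kb over the summed values per kb of its family, in percent. Over 25 exact two-sided permutation tests of 3 libraries against 3, the smallest p the design allows is 0.1. The smallest adjusted p was 0.19, and none can pass 0.05. The copies were picked by the same differences between single mutants and WT that were then tested. For those comparisons a small p or a lack of overlap follows in part from the choice, and no shift is inferred from them. The comparisons of the transgenic groups with WT use the same WT libraries.

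SAG24 was 26.8 ± 1.44% of L10 transcripts in rps6a and 25.2 ± 0.404% in rps6b, against 34.5 ± 1.91% in WT (SD, n = 3 each, exact permutation p = 0.1 each). It was 27.4 ± 1.23% in eS6A-Δ6SA and 32.9 ± 1.53% in eS6A-HA (n = 3 each), and eS6A-Δ6SA overlapped with neither eS6A-HA nor WT (exact permutation p = 0.1 for each pair). By library the share was 27.9, 28.2 and 25.9% in eS6A-Δ6SA, 34.0, 31.2 and 33.6% in eS6A-HA, 25.2, 27.2 and 28.1% in rps6a, 25.5, 25.3 and 24.8% in rps6b, and 33.2, 36.7 and 33.6% in WT. SAG24 had 408, 522 and 434 normalized counts in eS6A-Δ6SA, 521, 492 and 513 in eS6A-HA, 520, 557 and 534 in rps6a, 511, 593 and 553 in rps6b, and 577, 620 and 496 in WT. In the single mutants its own level overlapped with WT while SAC52 was higher.

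The share of AT3G07110 in L13a transcripts was 22.1, 22.4 and 25.7% in eS6A-Δ6SA, 22.3, 21.1 and 22.2% in eS6A-HA, 25.6, 26.4 and 26.1% in rps6a, 29.6, 28.1 and 27.4% in rps6b, and 20.5, 20.8 and 22.2% in WT. Its mean was 26.0 ± 0.388% in rps6a and 28.3 ± 1.12% in rps6b, against 21.2 ± 0.923% in WT, without overlap (SD, n = 3 each, exact permutation p = 0.1 each).

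AT2G37190, an L12 copy, had 316, 395 and 380 normalized counts in eS6A-Δ6SA, 387, 318 and 393 in eS6A-HA, 410.0, 477 and 450 in rps6a, 441, 504 and 464 in rps6b, and 395, 408 and 362 in WT. Its own level was thus above every WT library in all libraries of both single mutants. Its share of L12 transcripts was 42.9, 43.6 and 43.9% in eS6A-Δ6SA, 46.2, 42.6 and 47.1% in eS6A-HA, 40.7, 45.5 and 43.0% in rps6a, 38.0, 41.5 and 39.6% in rps6b, and 46.3, 45.9 and 46.7% in WT. The mean share was 43.5 ± 0.492% in eS6A-Δ6SA, 45.3 ± 2.34% in eS6A-HA, 43.1 ± 2.38% in rps6a and 39.7 ± 1.74% in rps6b, against 46.3 ± 0.405% in WT. The L12 share of AT2G37190 overlapped with WT in eS6A-HA and in no other genotype.

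AT1G33120, an L9 copy, had 207, 235 and 257 normalized counts in eS6A-Δ6SA, 237, 181 and 189.9 in eS6A-HA, 273, 298 and 294 in rps6a, 336, 344 and 366 in rps6b, and 237, 227 and 197 in WT. Both single mutants lay above WT without overlap. Its share of L9 transcripts was 52.4, 49.6 and 54.3% in eS6A-Δ6SA, 50.1, 45.7 and 45.9% in eS6A-HA, 49.7, 50.8 and 52.4% in rps6a, 52.2, 51.0 and 57.3% in rps6b, and 47.1, 48.2 and 46.3% in WT. The mean share was 52.1 ± 2.38% in eS6A-Δ6SA, 47.3 ± 2.49% in eS6A-HA, 51.0 ± 1.34% in rps6a and 53.5 ± 3.32% in rps6b, against 47.2 ± 0.945% in WT. In this share eS6A-HA alone overlapped with WT. However, AT1G33120 and PGY2 share 52.1% and 53.0% of their stretches of 75 bases. The counting may thus have split or dropped their reads, and this level and share are uncertain.

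AT2G20450, an L14 copy, had 171, 204 and 213 normalized counts in eS6A-Δ6SA, 183, 152 and 153 in eS6A-HA, 269.7, 288 and 326 in rps6a, 220.4, 295 and 306 in rps6b, and 203, 189 and 188 in WT. Its share of L14 transcripts was 17.7, 18.5 and 21.4% in eS6A-Δ6SA, 17.8, 14.7 and 14.5% in eS6A-HA, 24.7, 23.9 and 24.3% in rps6a, 17.5, 20.7 and 21.9% in rps6b, and 19.1, 17.1 and 18.3% in WT. The level lay above WT without overlap in both single mutants, and the share in rps6a only among the 4 comparisons with WT. The mean share was 24.3 ± 0.412% in rps6a and 20.0 ± 2.27% in rps6b, against 18.1 ± 0.993% in WT.

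**Figure D5:**
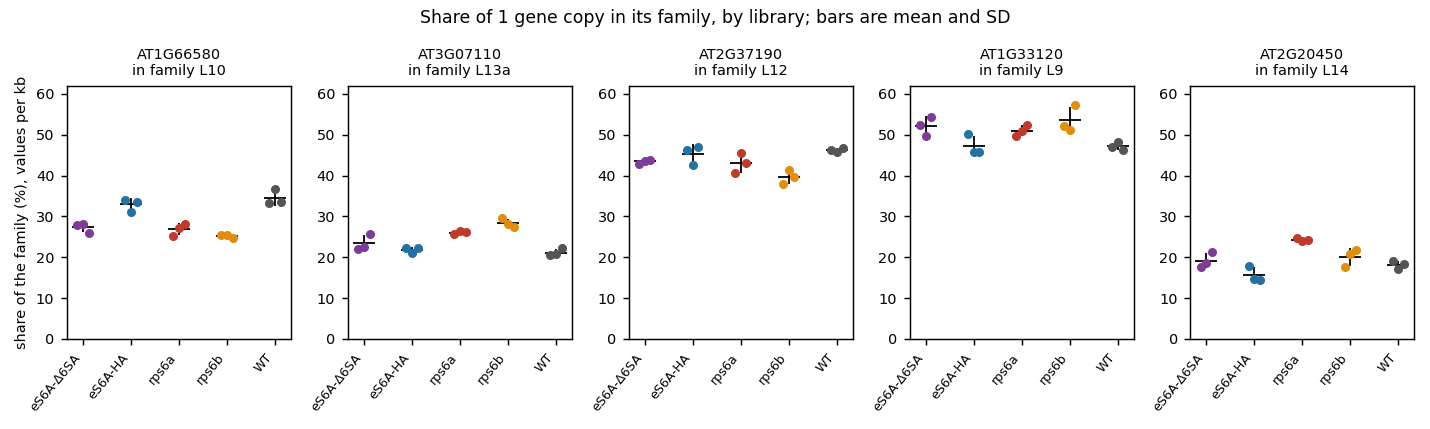
Share of 1 gene copy in the summed values per kb of its protein family, in percent, in each library (points), with the mean (horizontal bar) and SD (vertical bar) of each genotype. SAG24 (AT1G66580) averages 27.4% in eS6A-Δ6SA and 32.9% in eS6A-HA, and 26.8% in rps6a and 25.2% in rps6b against 34.5% in WT.

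Sequence likeness limits the other copies less. Of the 57 members, 45 shared no stretch of 75 bases with another member of their family. Besides the L9 pair, the L21 genes AT1G57860 and AT1G57660 shared 25.8% and 23.4% of theirs. The L21 genes AT1G09590 and AT1G09690 shared 6.39% and 5.70%, the L11 genes AT2G42740 and AT3G58700 5.30% and 4.19%, and SAG24 (AT1G66580) and SAC52 (AT1G14320) shared 2.23% and 1.81%. The 51 pairs of copies within families had coding sequences 68.7 to 99.2% identical, with a median of 84.9%.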

How the data were processed

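Total RNA depleted of ribosomal RNA, with ERCC spike-ins, was sequenced from 15 shoot libraries, 3 for each of 5 genotypes, per the labels' protocols. The deposited values are normalized counts per gene (a signal that is not a raw count), and the submitters' processing notes list STAR 2.7.6a, featureCounts 2.0.0, DESeq2 1.26.0 and the TAIR10 build with no role or order. Whether reads were counted by strand, and how reads matching several copies were treated, is not given in the sources used here. Dividing each column by the value of 1 read gave whole reads (within 0.01 read) for 100% of values above 0 in every library, and these recovered reads gave the depth.

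Tests used limma 3.58.1 (trend and robust) in R 4.3.3 on log2(normalized count + 1), so folds of low genes are understated. All 15 libraries entered 1 fit over 16335 genes with a mean of at least 10, without the 77 spike-in rows, with Benjamini-Hochberg adjustment within each comparison. edgeR 4.0.16 (quasi-likelihood) and DESeq2 1.42.0 on the recovered reads, other scalings, filters, pseudocount, fit and leave-one-out settings were alternatives. On the recovered reads edgeR called 418 genes for eS6A-Δ6SA, 119 for eS6A-HA, 3578 for rps6a and 4040 for rps6b, each against WT. On simulated data the fit missed a part of the changed genes, more often those of low level, and fell short of the recovery first required; the requirement was then set on better-expressed genes. Shares of a copy within its family used exact permutation tests, on copies chosen by their share differences between single mutants and WT.

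Values in every library were given for the 3 called members with the largest rise and fall in each comparison with WT and in eS6A-Δ6SA against eS6A-HA, the 2 with the highest and the 2 with the lowest level per kb, and copies of the 5 families whose shares shifted most. ATL5, SAC52, AT3G53430, the L3 shares and the promoters shown were chosen after their values were seen. Members given with fold changes only, AT4G17390 among them, are also outside the rule for named members. The longest annotated transcript was taken as a gene's length after the annotation was seen. The rule for the members uses no measured value, but the members and lists were chosen with earlier results of these data known. Of the gene identifiers, 21565 of 21777 matched the TAIR10.1 annotation, from which names, sequences and coordinates come. Of the listed other ribosomal protein genes, those whose annotated product or symbol names no ribosomal protein were left out.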

Additional observations from a re-analysis of the deposited data

Results flagged for a closer look

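The effect of the single mutations on AT3G53430 (L12) differed in the direct test, with a log2 difference of -0.31 for rps6a against rps6b (limma adjusted p = 0.033), which is the difference between a rise of 0.38 and one of 0.69 against WT. AT3G53430 was the 1 of 57 members called there, where 2.92% of all tested genes were called in either direction. Its call is lost without any 1 of the single-mutant libraries and its sign turns under spike-in scaling, as given above.

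For RPL3B (AT1G61580) the transgenic groups differed, with a log2 difference of -0.74 for eS6A-Δ6SA against eS6A-HA (limma adjusted p = 0.0018). RPL3B was the 1 of 57 members called there, where 2.63% of all tested genes were called in either direction. The values against WT were -0.72 and 0.023. All 3 eS6A-Δ6SA libraries were below all 3 eS6A-HA libraries. With spike-in scaling the call between the transgenic groups was lost (limma adjusted p = 0.065), as given above.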

How the results depend on the processing

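Between filters, pseudocounts, TMM scaling, edgeR, DESeq2 and fits of only the groups compared, no count of called members moved by over 1.5 times. Upper-quartile scaling moved the medians of eS6A-HA to -0.46 against rps6a and -0.60 against rps6b. Spike-in scaling changed most: the counts became 55 for rps6a against WT, 0 for eS6A-Δ6SA against WT, 14 for eS6A-Δ6SA against eS6A-HA, 17 for rps6a against rps6b, and 51 and 10 for eS6A-Δ6SA against rps6a and rps6b. The medians on that scale became 0.70 for rps6a against WT, 0.33 for eS6A-Δ6SA against eS6A-HA, 0.26 for rps6a against rps6b (reversed, as was AT3G53430 at 0.081), -0.84 for eS6A-HA against rps6a, and -0.53 and -0.28 for eS6A-Δ6SA against rps6a and rps6b. The medians of all genes also differed under that scaling; the cause was not tested. Libraries of the same replicate number mostly did not deviate together (2 of 30 correlations over 0.1, from -0.16 to 0.18), so the numbers were not taken as pairs. These correlations cannot exclude a shared batch. With the number as a replicate block, 2 members were called in eS6A-Δ6SA against WT, and no other count moved by over 1.5 times. Without that block 2.57% of all tested genes were called in eS6A-Δ6SA against WT.

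Leaving out 1 library at a time gave counts of 20 to 39 for rps6a against WT, 34 to 44 for rps6b against WT, 0 to 0 for eS6A-HA against WT, 1 to 3 for eS6A-Δ6SA against WT (2 without WT replicate 3 and 3 without eS6A-Δ6SA replicate 2), 1 to 8 for eS6A-Δ6SA against eS6A-HA, and 0 to 1 for rps6a against rps6b. Against the single mutants they were 35 to 40 and 43 to 46 for eS6A-HA, and 6 to 42 and 34 to 51 for eS6A-Δ6SA, against rps6a and rps6b. All-gene calls in the same fits, of 16335, were 2721 to 3263 for rps6a and 3007 to 3591 for rps6b against WT. They were 65 to 129 for eS6A-HA and 250 to 432 for eS6A-Δ6SA against WT. They were 241 to 570 for eS6A-Δ6SA against eS6A-HA, and 293 to 358 for rps6a against rps6b. Against rps6a and rps6b they were 2918 to 3409 and 2865 to 3264 for eS6A-HA. For eS6A-Δ6SA they were 1438 to 1866 and 1852 to 2445. The members' medians were 0.27 to 0.40 for rps6a and 0.40 to 0.51 for rps6b against WT. The sign of the median depended on single libraries for eS6A-HA against WT (-0.14 to 0.0016), eS6A-Δ6SA against WT (-0.11 to 0.11) and eS6A-Δ6SA against eS6A-HA (-0.014 to 0.20). For the shares, in percentage points, the sign turned for AT2G37190 in eS6A-HA against WT (-1.90 to 0.32, above 0 without eS6A-HA replicate 2), for AT1G33120 in eS6A-HA against WT (-1.40 to 0.79, being -1.40 without eS6A-HA replicate 1, -0.031 without WT replicate 1 and -0.40 without WT replicate 3) and for AT2G20450 in eS6A-Δ6SA against WT (-0.045 to 1.79, below 0 without eS6A-Δ6SA replicate 3). The cause of these changes was not tested, beyond the smaller number of samples. The precision was poor for the members with the lowest levels, with standard errors of 0.20 for AT1G26910 and 0.24 for AT2G42740.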
